A study of Pyrus pyrifolia with 6 samples.

Results

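The genes described here are named for the steps from farnesyl diphosphate to the triterpene beta-amyrin, and were measured in the skin of sand pear fruit. They are 1 squalene synthase-like gene (103965221), 1 squalene monooxygenase-like gene (103967038) and 5 beta-amyrin synthase-like genes (103936042, 103967646, 103927760, 103967651 and 103935926), i.e., 7 of the 42966 genes in the deposited table. They were selected on measured values, because they come from the list of genes that the study found differentially expressed between russet and green skin in this pathway, in these same libraries. Their levels and differences are therefore given as a description, and no test was run on them. The list names 23 genes, of which 19 are beta-amyrin synthase-like, and the other 14 of these are described beside the 5.

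Russet skin came from the cultivar 'Niitaka', whereas green skin came from 'Suisho', a bud mutant of 'Niitaka', i.e., a line propagated from a mutated shoot. Fruits of both lines grew in an orchard and were taken at 80 d. The skin of 10 fruits was combined in each sample, with 3 RNA-Seq libraries per line. Russet libraries carry the names A1 to A3 and green libraries B1 to B3, and the sources used here do not say which green sample each B library is. A single bud mutant line stands for green skin, so the line and the skin type cannot be told apart, and the labels do not say that the samples came from separate trees, so that p-values measure only the spread between these samples.

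Squalene synthase joins a pair of farnesyl diphosphate molecules into squalene, and squalene monooxygenase turns squalene into oxidosqualene. At this point the pathway branches. Cycloartenol synthase leads oxidosqualene into sterols, whereas beta-amyrin synthase and related cyclases fold it into the rings of triterpenes, which are known as components of the waxes in the skin of apple and pear. The enzymes of this family are similar in sequence, and the name of a gene here is the similarity-based description in the study's list, so the product of each cyclase is not known from these data.

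Values are FPKM, i.e., fragments on a gene scaled to its length and to the depth of the library, so that levels can be set side by side between genes. The libraries rested on 31381552 to 42729578 reads, and 1 read on a gene of 1000 bp was worth 0.0234 to 0.0319 FPKM. Fold changes are russet minus green on the scale of log2(FPKM + 0.1), which understates the change of low genes, and their standard errors (SE) come from limma. Levels of 3 skin layer genes that the study names are given as a description. They were chosen with their levels in these libraries known, so they are no independent check of the skin layers. The omega-hydroxypalmitate O-feruloyl transferase-like gene 103964024, of a family that acts in suberin formation, had 41.6 to 78.9 FPKM in russet skin, against 0.704 to 1.22 FPKM in green skin. The cuticle genes 103963865 (cytochrome P450 86A22) and 103949661 (KCS 10-like) had 0.979 to 2.11 and 2.95 to 7.48 FPKM in russet skin, against 85.4 to 114 and 98.3 to 171 FPKM in green skin. In bulk skin, fewer cells of a type and less RNA per cell cannot be told apart, and the part of the skin layers in the differences below was not tested.

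In all 7 genes the libraries of the lines did not overlap, with 3 genes higher and 4 lower in russet skin. Among the 30161 genes that averaged 0.1 FPKM or more, 17.2% were higher and 15.9% were lower in russet skin without overlap, and since the 7 genes were chosen for their difference nothing is read from this count. With the 0.1 FPKM limit, 6 of the 7 genes passed, and 103935926 lay just under it with a mean of 0.0934 FPKM. Both squalene genes were lower in russet skin, and the cyclases went in both directions.

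**Figure D1:**
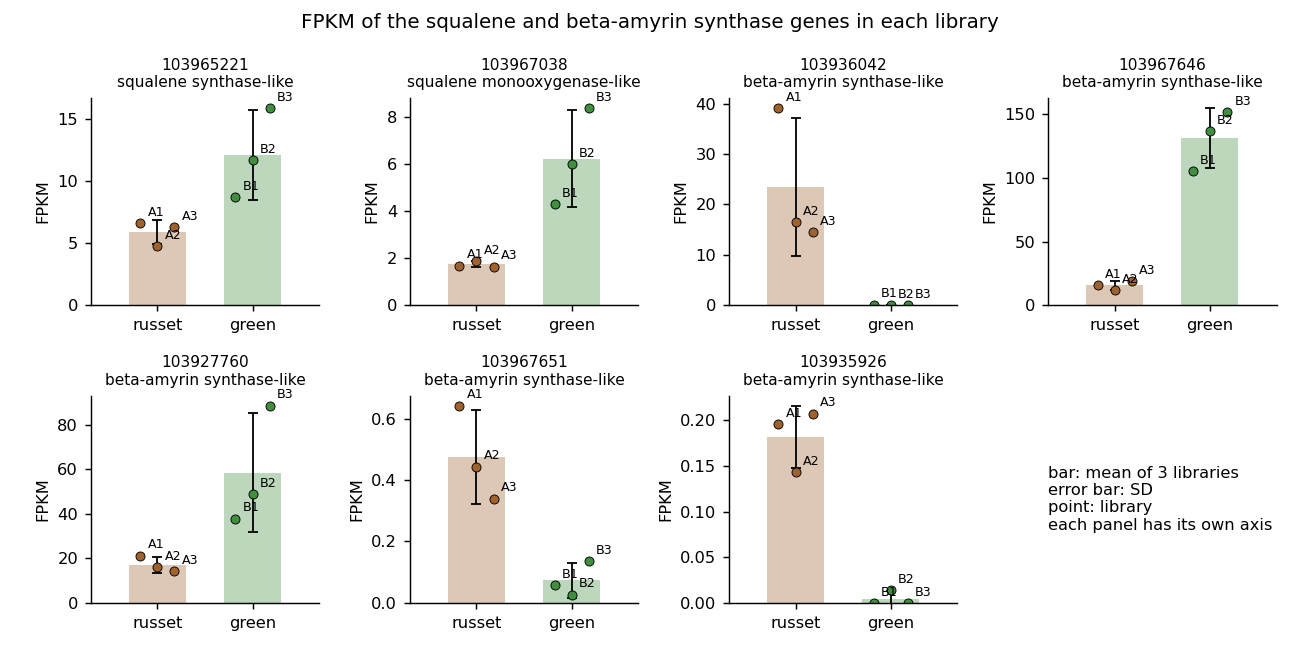
FPKM of the 7 genes in russet skin (left, brown) and green skin (right, green). Points are libraries, bars are the means of 3 libraries, error bars are SD, and each panel has its own axis from 0. 103936042 averaged 23.4 FPKM in russet skin, against 0.0538 FPKM in green skin, whereas 103967646 averaged 15.6 FPKM in russet skin, against 131 FPKM in green skin.

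Squalene synthase, the first step toward sterols and triterpenes, was measured on gene 103965221, which lies on the minus strand of scaffold NW_008988325.1 from 335248 to 343042. It had 6.59, 4.76 and 6.29 FPKM in russet libraries A1 to A3, against 8.71, 11.7 and 15.9 FPKM in green libraries B1 to B3. Every russet library lay below every green library, but the gap between A1 and B1 was small beside the range within green skin. The means were 5.88 ± 0.982 FPKM in russet skin, against 12.1 ± 3.61 FPKM in green skin (SD, n = 3 each), and the log2 fold change was -1.001 (SE 0.24), i.e., a 2.06-fold higher mean in green skin.

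Squalene monooxygenase, the enzyme that adds oxygen to squalene, was measured on gene 103967038 on the minus strand of scaffold NW_008988369.1 from 38433 to 41502. It had 1.68, 1.89 and 1.64 FPKM in A1 to A3, and 4.31, 6.001 and 8.39 FPKM in B1 to B3. The russet libraries lay close together, whereas the green libraries were spread widely, with B3 the highest. The means were 1.74 ± 0.131 FPKM in russet skin, against 6.23 ± 2.05 FPKM in green skin, and the log2 fold change was -1.74 (SE 0.26).

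The monooxygenase was lower than the synthase in every library. Its FPKM divided by that of the synthase was 0.255, 0.396 and 0.262 in A1 to A3, and 0.495, 0.512 and 0.528 in B1 to B3. The ratio was thus lower in each russet library than in any green library, and it varied far more among russet than among green libraries, with 0.304 ± 0.0799 in russet skin and 0.512 ± 0.0166 in green skin. Both genes summed to 7.62 ± 0.857 FPKM in russet skin, against 18.3 ± 5.67 FPKM in green skin, which gives a log2 ratio of -1.27. Squalene genes that the study did not list, if any, were not examined, so the sum may not cover the whole of these steps.

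Among the cyclases, 103967646 was the most abundant in green skin. It lies on the plus strand of scaffold NW_008988384.1 from 216673 to 222863 and had 16.0, 11.9 and 18.8 FPKM in A1 to A3, against 105, 137 and 152 FPKM in B1 to B3. The lowest green library was far above the highest russet library. The means were 15.6 ± 3.45 FPKM in russet skin, against 131 ± 23.7 FPKM in green skin, and the log2 fold change was -3.08 (SE 0.21). In green skin the mean was above that of 97.7% of the genes with a read in any library, and in russet skin above that of 75.6%.

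The other cyclase that was lower in russet skin, 103927760, lies on the plus strand of scaffold NW_008988432.1 from 137773 to 143199. It had 21.2, 15.9 and 14.4 FPKM in A1 to A3, and 37.8, 48.7 and 88.6 FPKM in B1 to B3. B3 stood well above the remaining green libraries, which makes the green SD large. The means were 17.2 ± 3.61 FPKM in russet skin, against 58.4 ± 26.7 FPKM in green skin, and the log2 fold change was -1.69 (SE 0.31).

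Gene 103936042 showed the opposite pattern and had almost no reads in green skin. It lies on the plus strand of scaffold NW_008988788.1 from 38515 to 44025. It had 39.2, 16.5 and 14.6 FPKM in A1 to A3, and 0.105, 0.0562 and 0 FPKM in B1 to B3. A1 was far above the remaining russet libraries, and B3, the library with the fewest reads, held none. In reads, 6640 fell on the gene in russet skin and 16 in green skin, so that the ratio per sequenced read was 380, with an exact 95% interval of 234 to 665 that covers counting error only. Sequencing was paired-end, and both reads of a pair may be counted. This interval and those of the genes below may thus be too narrow even for counting error. The fitted log2 fold change was 7.17 (SE 0.45), and this value depends on the pseudocount.

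The remaining cyclases, 103967651 and 103935926, had few reads in either line. Gene 103967651, annotated on the plus strand of scaffold NW_008988384.1 from 54928 to 119603, had 0.642, 0.443 and 0.339 FPKM in A1 to A3, and 0.0568, 0.0268 and 0.136 FPKM in B1 to B3. These values rest on 116 reads in russet skin and 16 in green skin, a ratio of 6.63 with an interval of 3.92 to 11.99. Gene 103935926, on the plus strand of scaffold NW_008988780.1 from 1964 to 16965, had 0.195, 0.143 and 0.207 FPKM in A1 to A3, and 0, 0.0144 and 0 FPKM in B1 to B3. It held 42 reads in russet skin and a single read in green skin, a ratio of 38.4 with an interval of 6.53 to 1554, so the size of its difference is known only within wide limits.

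Both of these low genes share their position with other genes. Within 103967651 lie all or part of 103967681, 103967652 and 103967650 on the opposite strand and 103967682 on the same strand, and within 103935926 lies 103935916 on the opposite strand. The highest of these 5 genes in FPKM was 103967652, with 23.8 ± 3.78 FPKM in russet skin, against 36.7 ± 4.80 FPKM in green skin. It is listed at only 101 bp, against 2472 bp for 103967650, so this ranking does not give the order in number of reads. Gene 103967650 had 9.61 ± 3.26 FPKM in russet skin, against 4.26 ± 1.25 FPKM in green skin, and 103935916 had 6.51 ± 1.53 FPKM in russet skin, against 3.04 ± 0.233 FPKM in green skin. The sources used here do not say whether the counting used strand, so reads of the overlapping genes cannot be told apart and the values of both cyclases are uncertain to that extent. How reads that match several cyclases were assigned is also not given, which touches every member of the family.

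Of the summed FPKM of the 5 cyclases, 103967646 and 103927760 made up nearly all in green skin, whereas russet skin divided it among 3 genes. Gene 103936042 had 50.7%, 36.7% and 30.2% of the sum in A1 to A3, against 0.0732%, 0.0303% and 0% in B1 to B3. Among these 5 cyclases it was the leading one in A1 and A2, but in A3 the leading one was 103967646. Gene 103967646 had 20.7%, 26.6% and 38.9% in A1 to A3, and 73.5%, 73.7% and 63.1% in B1 to B3, so its share was lower in every russet library. For 103927760 the shares overlapped, with 30.9 ± 4.09% in russet skin and 29.8 ± 6.08% in green skin, although its level was lower in russet skin. Both low genes stayed under 1% in every library, with 0.841 ± 0.143% for 103967651 and 0.334 ± 0.0888% for 103935926 in russet skin, and 0.0368 ± 0.0212% and 0.00259 ± 0.00448% in green skin.

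**Figure D2:**
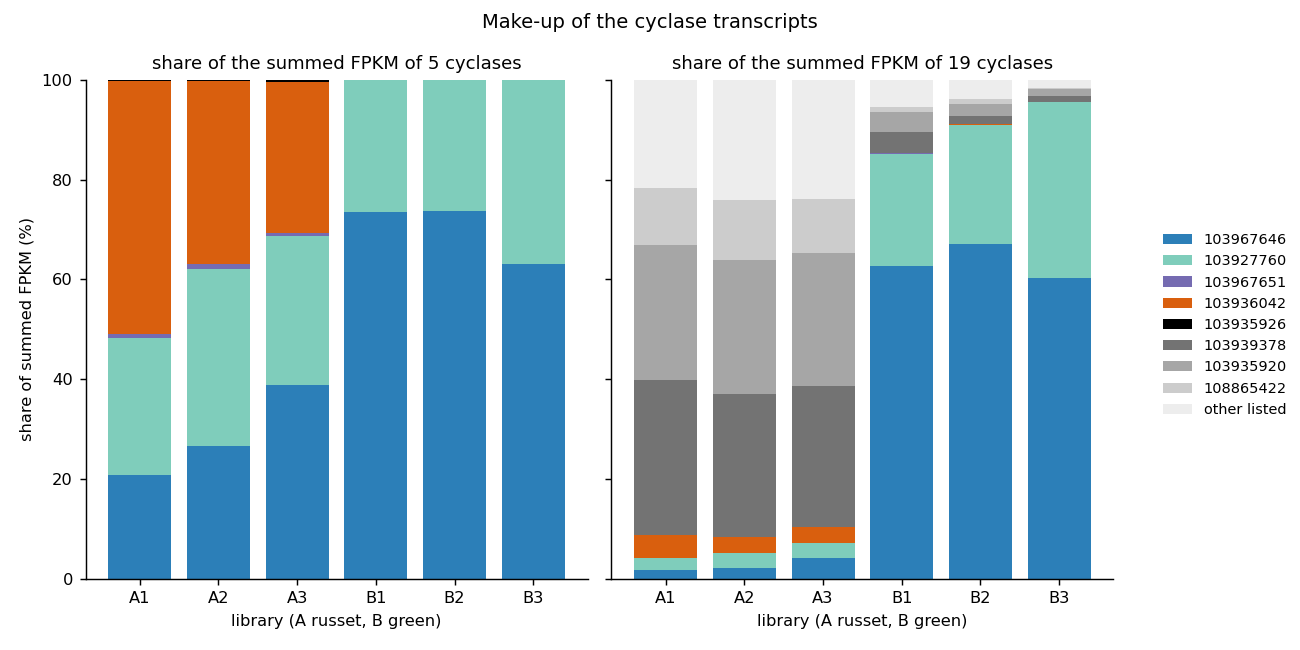
Share of each cyclase (%) in the summed FPKM of the 5 cyclases (left panel) and of all 19 listed cyclases (right panel), per library, with russet libraries A1 to A3 left of green libraries B1 to B3. 103967646 and 103927760 fill the green bars of the left panel, and in the right panel the 5 cyclases together make up 9.17% of the sum in russet skin and 90.6% in green skin.

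The sum of the 5 cyclases was 77.3, 44.9 and 48.3 FPKM in A1 to A3, and 143, 186 and 241 FPKM in B1 to B3. It was lower in each russet library, with means of 56.8 ± 17.8 FPKM in russet skin, against 190 ± 48.7 FPKM in green skin. The log2 ratio was -1.74, against the -1.27 of both listed squalene genes summed. Per FPKM of the squalene genes there were 9.34, 6.75 and 6.09 FPKM of these cyclases in A1 to A3, and 11.02, 10.5 and 9.90 in B1 to B3. The ratio was lower in russet skin without overlap, but A1 lay near B3.

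This picture turned round when the other 14 cyclases of the list were added. All 19 together had 888, 537 and 462 FPKM in A1 to A3, and 168, 204 and 252 FPKM in B1 to B3. The sum was then higher in every russet library, with 629 ± 227 FPKM in russet skin, against 208 ± 41.9 FPKM in green skin, a log2 ratio of 1.60. Per FPKM of the squalene genes, the 19 cyclases had 82.1 ± 24.6 FPKM in russet skin, against 11.6 ± 1.28 FPKM in green skin. In russet skin the lower summed level of both listed squalene genes thus stood beside a higher summed level of the listed cyclases.

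**Figure D3:**
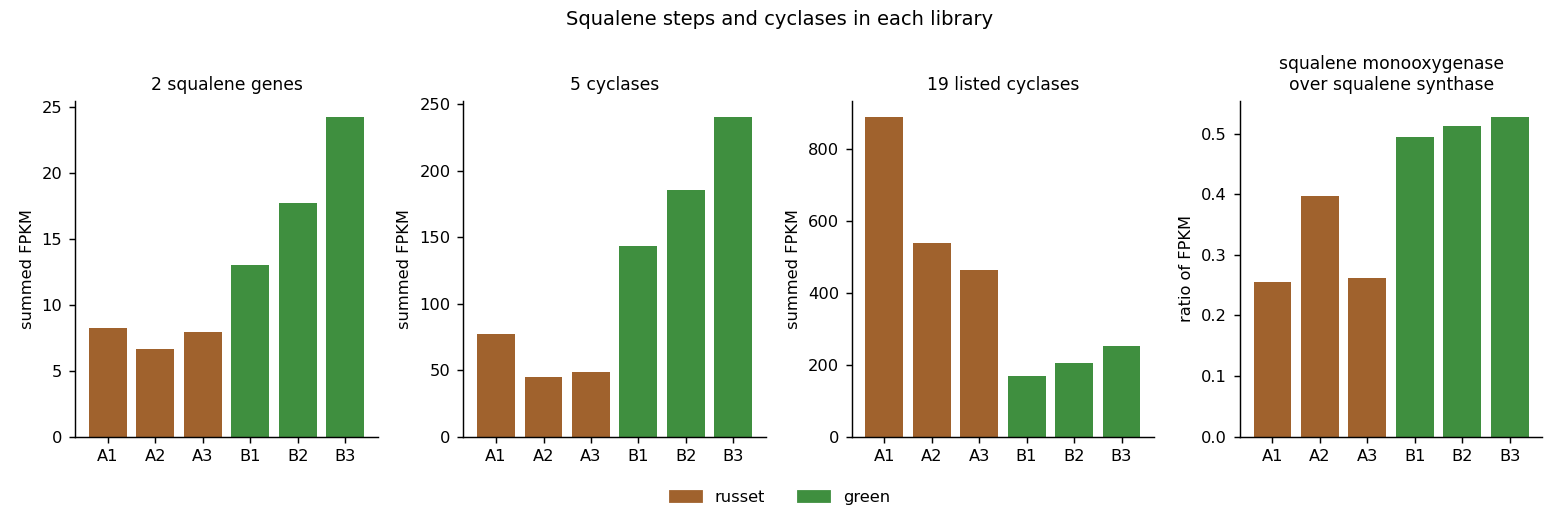
Summed FPKM per library of the 2 squalene genes, the 5 cyclases and all 19 listed cyclases, and the ratio of squalene monooxygenase to squalene synthase, with russet libraries (A, brown) left of green libraries (B, green). The first 2 sums and the ratio are lower in every russet library, whereas the sum of 19 cyclases is higher, at 462 to 888 FPKM in russet skin, against 168 to 252 FPKM in green skin.

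The other 14 cyclases were all higher in russet skin without overlap of the libraries, and like the 5 they were listed by the study for their difference in these libraries. Their log2 fold changes lay between 2.84 and 6.77 with a median of 4.53, whereas the median over all genes tested was 0.00. The most abundant was 103939378, with 276, 154 and 130 FPKM in A1 to A3 and 6.92, 3.46 and 2.74 FPKM in B1 to B3. The least abundant was 103941560, with 0.791 ± 0.289 FPKM in russet skin, against 0.0235 ± 0.0407 FPKM in green skin. Of the sum of all 19, 103939378 made up 29.3% in russet skin and 2.30% in green skin, and 103935920 made up 26.9% in russet skin and 2.73% in green skin. In that sum 103967646 had 2.70% in russet skin and 63.4% in green skin, and 103936042 had 3.54% in russet skin and 0.0300% in green skin. Among the 19, 103967646 and 103927760 were thus the only genes with a lower level in russet skin.

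**Figure D4:**
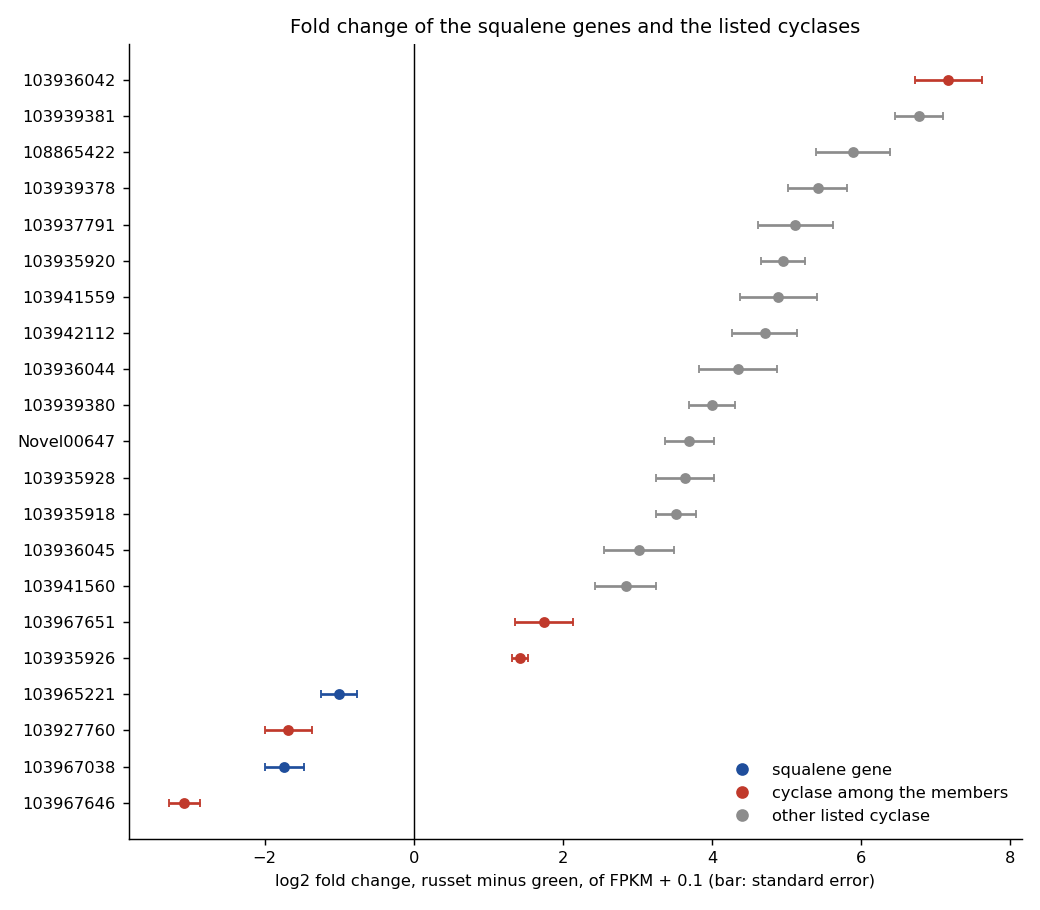
Log2 fold change (russet minus green, FPKM + 0.1) with its standard error for the 2 squalene genes (blue), the 5 cyclases described here (red) and the other 14 listed cyclases (grey), ordered by value. All but 4 lie above 0, and the 4 below 0 are both squalene genes, 103927760 and 103967646, at -1.001 to -3.08.

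The order of the libraries within a line was compared between the genes. In the 17 cyclases that were higher in russet skin, A1 was the highest russet library in 14, and 103939381, 103939380 and 103935926 were the exceptions, while A1 was the highest russet library for 32.5% of all genes tested. In the 4 genes that were lower in russet skin, A1 was the highest russet library in 2, and 103967038 and 103967646 were the exceptions. A1 was the highest russet library for all 3 skin layer genes, the suberin gene 103964024 (78.9 FPKM in A1, 41.6 in A2 and 43.8 in A3) and the cuticle genes 103963865 (2.11, 1.01 and 0.979 FPKM) and 103949661 (7.48, 2.95 and 5.10 FPKM). Among green libraries, B3 was the lowest, ties at 0 included, in 13 of the 17 cyclases, against 27.3% of all genes tested, and it was the lowest green library for all 3 skin layer genes. In the 4 genes that were lower in russet skin, by contrast, B3 was the highest and B1 the lowest green library in each, while over all genes tested B3 was highest for 46.5% and B1 lowest for 34.6%. The part of A1 and B3 in the means was not tested, and leaving out either of them kept every direction.

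Across the 6 libraries, profiles were set side by side as log2(FPKM + 0.1) centred on each gene's mean, with the root mean square difference as the measure of likeness. Among the 7 genes the nearest pair was squalene monooxygenase 103967038 and the cyclase 103927760, with a difference of 0.22. Squalene synthase 103965221 lay at 0.41 from 103927760 and at 0.42 from squalene monooxygenase. The farthest pair was 103936042 and 103967646, at 5.16. The low genes 103967651 and 103935926 lay at 0.43 from each other, a small value in part because the pseudocount compresses low levels.

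Among 23838 genes that averaged 1 FPKM or more, the nearest to squalene synthase were 103948978 at 0.10 and 103931901 at 0.11, and the nearest to squalene monooxygenase were Novel00442 at 0.17 and 103948417 at 0.20. Gene 103948978 had 64.9 ± 10.95 FPKM in russet skin, against 146 ± 33.3 FPKM in green skin, so it followed the synthase at a far higher level. Gene 103936042 was nearest to 103946649, described as (-)-alpha-pinene synthase-like in the same list, at 0.34, and then to 108866224 at 0.42. The first of these had 21.1, 13.5 and 7.75 FPKM in A1 to A3, and 0.0126, 0 and 0 FPKM in B1 to B3, so that it too had almost no reads in green skin. The nearest were 103949562 and 103938428 for 103967646, 103963754 and 103930878 for 103927760, 103932928 and 108865923 for 103967651, and 103956691 and 103936102 for 103935926, at 0.08 to 0.16. For 103967651 and 103935926 the pseudocount compresses the profile: 103936102 had 25.9 ± 2.92 FPKM in russet skin, against 9.07 ± 0.384 FPKM in green skin, a far smaller ratio than the 38.4 in reads of 103935926. A likeness over 6 libraries of 2 lines is a description, and the libraries share the difference between the lines.

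The 7 genes lie on 6 scaffolds, since 103967646 and 103967651 share 1 of them and yet went in opposite directions. The scaffold of 103936042 holds 7 genes, of which 5 are listed cyclases on the plus strand. Its neighbours there are 108865422 (72.0 ± 26.4 FPKM in russet skin, against 1.24 ± 0.713 FPKM in green skin), 103936045, Novel00647 and 103936044, with log2 fold changes of 5.89, 3.02, 3.69 and 4.35. The scaffold of 103935926 holds 4 listed cyclases, and there the neighbour 103935920 had 169 ± 62.3 FPKM in russet skin, against 5.31 ± 1.59 FPKM in green skin, far above 103935926 itself. Its other listed neighbours, 103935918 and 103935928, had log2 fold changes of 3.52 and 3.64.

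**Figure D5:**
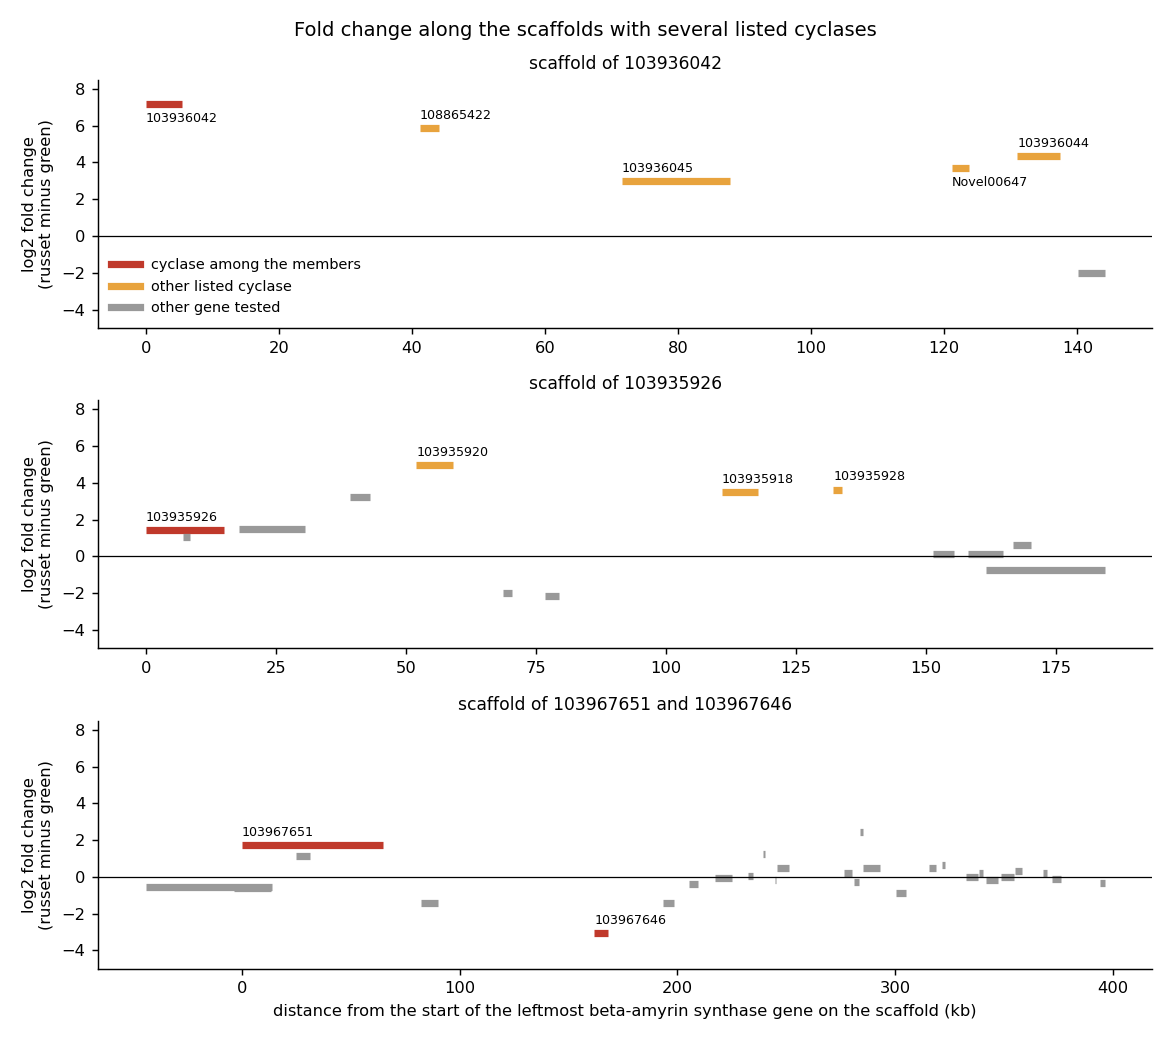
Log2 fold change (russet minus green, FPKM + 0.1) of the genes on the 3 scaffolds that hold more than 1 listed cyclase among those of the 7 genes, against the distance (kb) from the start of the leftmost cyclase. Red bars are cyclases described here, orange bars are other listed cyclases and grey bars are other genes tested. On the upper scaffold the 5 cyclases lie between 3.02 and 7.17, and on the lowest 103967651 lies at 1.75 and 103967646 at -3.08.

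The other genes on these scaffolds were not used in the choice and were tested with limma, two-sided, with Benjamini-Hochberg adjustment over all 30161 genes. An adjusted p under 0.05 was reached by 15.3% of all genes tested, with 8.05% on the higher and 7.29% on the lower side in russet skin. Leaving out genes in the study's lists, 78 neighbours were tested and 21 passed, 11 higher and 10 lower, i.e., 26.9%. On the scaffolds of the cyclases 15 of 43 passed, and on those of the squalene genes 6 of 35. The share above the background was not tested, the genes of a scaffold are not independent, and the number of calls dropped to 11 without the filter on low values and to 11 without library B2, 12 without B1 and 13 without A1 or without A3.

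A few neighbours are named here after their values were seen. Beside squalene synthase, 103965222 had 3.34 ± 0.105 FPKM in russet skin, against 9.59 ± 1.06 FPKM in green skin, and its log2 fold change was -1.49 (SE 0.14, limma adjusted p = 0.00065). Near 103935926, the assembled locus Novel00639 had 0.894 ± 0.336 FPKM in russet skin and was listed at 0 in every green library (limma adjusted p = 0.0013). Of the genes that overlap the low cyclases, 103935916 had a log2 fold change of 1.05 (limma adjusted p = 0.017), 103967652 of -0.63 (limma adjusted p = 0.039) and 103967650 of 1.15 (limma adjusted p = 0.042). The call of 103967650 was lost with the library number as a replicate block (adjusted p = 0.060), and with 6 libraries under the other settings limma gave an adjusted p from 0.011 to 0.14 for 103967652, from 0.039 to 0.13 for 103967650 and from 0.012 to 0.051 for 103935916. With 1 library left out it reached 0.11, 0.12 and 0.063 for these 3 genes. For 103965222 and Novel00639 it reached 0.0046 and 0.0081 over all settings.

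Other steps around the 7 genes are known here only from the study's lists of differentially expressed genes, which were also chosen on these libraries, so counts are given without a test. Of 6 genes listed under steroid biosynthesis, 5 were lower in russet skin, among them both squalene genes. The others that were lower were 103933970, 103967648 and 103936046. Gene 103933970 was very low in both lines, with 0.00688 ± 0.000908 FPKM in russet skin, against 0.141 ± 0.0241 FPKM in green skin. Gene 103936046 is the neighbour of the cyclases on the scaffold of 103936042, with 1.53 ± 0.261 FPKM in russet skin, against 6.62 ± 1.68 FPKM in green skin. Gene 103967648, between 103967651 and 103967646 on their scaffold, had 2.41 ± 0.801 FPKM in russet skin, against 6.56 ± 1.55 FPKM in green skin. The exception, 108868572, had 0.887 ± 0.354 FPKM in russet skin and was listed at 0 in green skin. Of 11 genes listed under terpenoid backbone biosynthesis, 7 were lower and 4 higher in russet skin, with a median log2 fold change of -0.79. This pathway supplies farnesyl diphosphate, but the list is not limited to that supply. Among the 7 is 103926916, described as protein farnesyltransferase subunit beta-like, with 2.49 ± 0.545 FPKM in russet skin, against 5.89 ± 0.397 FPKM in green skin. The other listed genes had no description here, so the count is not one of supply steps.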

How the data were processed

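The authors discarded poor reads, aligned the rest to the genome of Chinese white pear with HISAT2 2.0.4, assembled transcripts with Cufflinks 2.1.1 and deposited FPKM per gene and library, with a table of positions and lengths. The sources used here do not give the version of the assembly. Columns named A and B were taken as russet and green from the study's legend.

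For genes averaging 0.1 FPKM or more, log2(FPKM + 0.1) was fitted in limma 3.58.1 under R 4.3.3, with eBayes and its trend option, two-sided tests and a Benjamini-Hochberg threshold of 0.05. The value of 103935926 came from the fit without that filter. Reads were recovered from FPKM and length: 74.5% of 191857 values came out whole within 0.0001 with the deposited length, and all after another length was taken for 8439 genes. The members and lists were chosen with earlier results of these data known. Named genes are the members, the most and least abundant other cyclases and those beside a member, and the 2 nearest profiles. The skin layer genes were taken from those the study names, with their levels in these libraries known. Other genes named from the study's lists, the library order or the scaffolds were chosen after their values were seen. The count of pathway genes by description was left out, because no annotation of the whole genome was used here. The only descriptions used were those in the study's lists and in a part of its annotation table. Deviations from the line means correlated at 0.195, 0.211 and 0.323 for libraries with the same number, against -0.235 to 0.0436 for different numbers. Deviations within a line sum to 0, so these values are not independent. Whether the numbers pair the libraries was not tested, and the sample labels number green skin differently. The fit has no block, as the methods name no pairing. On simulated data with 29967 genes, limma recovered 99 of 100 genes changed 4-fold and 48 of 100 changed 2-fold, with 13 false calls. The changed genes were drawn from those with more reads, and every gene had a dispersion (spread beyond counting error) of 0.04. The rates therefore do not carry over to genes with few reads or a wider spread between libraries. Differential expression columns of the authors, made with DESeq 1.18.0, were not used.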

Additional observations from a re-analysis of the deposited data

How the results depend on the processing

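The pseudocount sets the fold change of low genes. The median log2 fold change of the other 14 cyclases was 3.37 with a pseudocount of 1, 5.20 with 0.01 and 5.21 with limma voom on recovered reads, and that of 103936042 lay between 4.40 and 9.13. Adding all 19 cyclases to the sum gave a log2 ratio of 1.60 in place of -1.74, because the other 14 are higher in russet skin. With 1 library left out at a time, 3162 to 3600 genes were called, 11 to 16 neighbours were called, the median of the other cyclases was 4.15 to 4.82, the squalene sum gave -1.46 to -1.01 and the cyclase sum -2.03 to -1.53, and 3 members stayed higher. Without the filter 11 neighbours were called. With the replicate block 6038 genes and 23 neighbours were called, and of the 5 neighbours named with an adjusted p, 103967650 alone changed its call. Each setting kept the direction of every member for which it gave a value. Tests by description were not run. Depth limits 103967651 and 103935926, at 16 and 1 green reads.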
